A study of Caenorhabditis elegans with 12 samples.

Results

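The promoter fragments of *myo-3* and *baf-1* were examined as sources of an integrated reporter array. The array, *gwIs4*, is a tandem transgene on chromosome X that carries the *myo-3* promoter in front of RFP and the *baf-1* promoter in front of a GFP-LacI fusion with the *let-858* 3′ UTR. Reads from its copies align to the genomic places from which the fragments were taken. Members were all promoter windows that overlap chromosome V 12234125–12235824 or chromosome III 9465682–9468272 (ce10), whatever their counts. This gave 4 of 51519 windows, all 4 among the 51281 windows with any count that were tested. They are the windows of *myo-3* and of the non-coding RNA gene *K12F2.4* at the *myo-3* source, and of *tag-342* and *B0464.6* at the *baf-1* source.

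*myo-3* encodes a myosin heavy chain of body-wall muscle thick filaments, and its promoter is widely used to mark this tissue. BAF-1, the barrier-to-autointegration factor, binds DNA and links chromatin to the nuclear lamina, and its promoter is active in most cells. Repetitive transgene arrays in *C. elegans* are known to acquire methylation of histone H3 on lysine 9. MET-2 deposits H3K9me1 and H3K9me2, and SET-25 deposits H3K9me3.

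Accessibility was measured by Omni-ATAC-seq, in which the transposase Tn5 inserts adaptors into open DNA, in body-wall muscle cells sorted from larvae. The 12 libraries comprised 3 of WT, 3 of each single mutant (*met-2(n4256)* and *set-25(n5021)*) and 3 of the double mutant *met-2 set-25*, from larvae grown to the L3 stage. Per the labels, both mutations lie on chromosome III, which also holds the *baf-1* source. The labels call the WT strain N2, whereas the study sorted by the RFP that *gwIs4* expresses from its *myo-3* promoter and lists *gwIs4* strains for the 3 mutants. The array is therefore taken to be shared by all groups, and it is also what the sort selected on. The study describes the replicates of this assay as biologically independent, while the growth text of the labels mentions fewer than the 3 libraries listed for each genotype.

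Levels are given in CPM, the share of a window in the column total times 1000000. Column totals ranged from 50148450 to 105547683 counts, and the median window held 945 to 1957 counts in a library. The lowest count of a source window was 49127 (*B0464.6*, WT replicate 1), so counting error was small beside the spread between libraries. The median of all windows was 18.7 CPM, with quartiles of 16.5 and 21.0. Promoters of 33 body-wall muscle genes other than *myo-3* had a median of 26.7 CPM. Those of intestine, neuron, hypodermis and seam, pharynx and germ line genes had medians from 18.7 to 21.2 CPM, and none of these lists was near 0.

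All 4 source windows stood far above every endogenous window around them, in WT as in the mutants. The *myo-3* window was the highest of the whole table in each of the 12 libraries and the *K12F2.4* window the second highest. The *tag-342* window ranked 4 or 5 and the *B0464.6* window 5 or 6. Added together, the 4 windows held between 0.829% and 1.20% of a column total. Reads in the stretch that overlapping windows share are counted in each of them. The number of array copies is not given in the sources used here, and copy number and accessibility per copy cannot be told apart in these counts.

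The *myo-3* window (NM_073664, minus strand, V 12234125–12235824) runs from 1500 bp before to 200 bp after the start of transcription. It held 4414, 4952 and 4050 CPM in WT replicates 1 to 3 and 4903, 5082 and 4207 CPM in *met-2*. In *set-25* it held 4350, 4418 and 4398 CPM, and in *met-2 set-25* 5441, 6076 and 5645 CPM. Every *met-2 set-25* library was above all 9 others, whereas WT, *met-2* and *set-25* overlapped. The 3 *set-25* libraries lay close together (coefficient of variation 0.789%), while WT and *met-2* libraries varied by 10.1% and 9.77%. As a share of the column total, the window took 0.405% to 0.608%.

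The *K12F2.4* window (NR_069708, minus strand, V 12233344–12235043) belongs to a non-coding RNA gene whose start lies 781 bp downstream of that of *myo-3* on the same strand, and it shares 919 bp with the *myo-3* window. It held 2494, 2944 and 2315 CPM in WT and 2836, 2986 and 2354 CPM in *met-2*. The *set-25* libraries held 2474, 2543 and 2531 CPM and the *met-2 set-25* libraries 3195, 3716 and 3379 CPM. The same libraries were high and low as for *myo-3*, which is partly built into the comparison because the windows share reads. Its share of the column total was 0.231% to 0.372%.

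The *tag-342* window (NM_066685, plus strand, III 9466573–9468272) held 989, 962 and 967 CPM in WT and 1005, 1046 and 1034 CPM in *met-2*. In *set-25* it held 1000.3, 975 and 986 CPM, and in *met-2 set-25* 1058, 1088 and 1118 CPM. The double mutant again had the highest libraries, by a smaller margin than at *myo-3*. Every *met-2* and every double-mutant library was above all 3 WT libraries, and no *met-2* library reached the lowest *met-2 set-25* library. The window took 0.0962% to 0.112% of the column total.

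The *B0464.6* window (NM_066682, minus strand, III 9465682–9467381) faces the opposite way and shares 809 bp with that of *tag-342*. It held 980, 953 and 959 CPM for WT, 998, 1037 and 1024 CPM for *met-2*, 990, 967 and 975 CPM for *set-25* and 1048, 1079 and 1107 CPM for the double mutant. These values followed those of *tag-342* library by library, at 0.0953% to 0.111% of the column total. *baf-1* itself had 0 windows under its own transcript in the table. In the WBcel235 annotation it lies between *B0464.6* and *tag-342*.

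**Figure D1:**
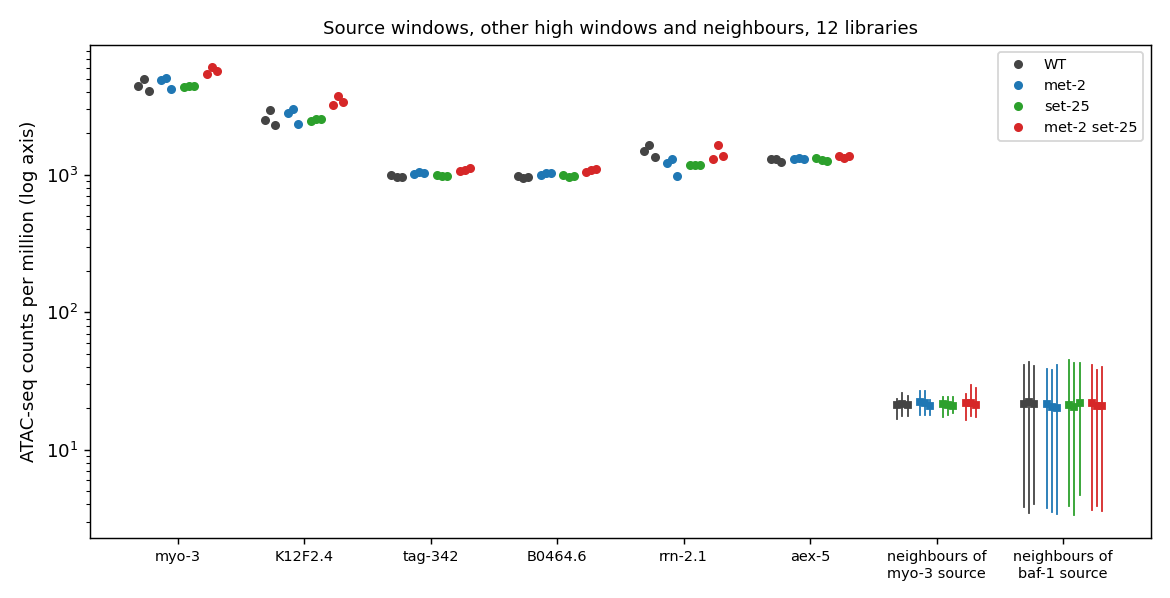
ATAC-seq level in CPM on a log axis in each of 12 libraries, for the 4 source windows and the 2 other highest windows (points, 3 libraries per genotype), and for the windows within 50 kb of each source (squares for the median, lines from the lowest to the highest window). The source windows lie between 953 and 6076 CPM, and the neighbour medians lie near 21 CPM in every library.

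No neighbouring window within 50 kb shared this excess. Stretches without windows leave the edges of the excess unresolved, except downstream of the *myo-3* start. Within 50 kb of the *myo-3* source, 50 windows of 44 genes had mean levels from 17.9 CPM (*ugt-56*, a UDP-glucuronosyltransferase) to 24.7 CPM (*vab-8*, a kinesin-like protein of cell migration), with a median of 21.8. The *myo-3* window exceeded the median of these neighbours 191-fold to 277-fold over the 12 libraries, and *K12F2.4* exceeded it 109-fold to 169-fold. Within 50 kb of the *baf-1* source, 40 windows of 27 genes had a median of 21.0 CPM. Their extremes, 3.76 CPM at *T26G10.9* and 41.0 CPM at *F54C8.11*, belong to windows that combine several intervals. *tag-342* exceeded its neighbours 43.1-fold to 53.8-fold and *B0464.6* 42.7-fold to 53.3-fold. If the neighbour median is taken as the endogenous level, between 97.7% and 99.6% of the counts in a source window lay above it.

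Overlapping windows placed the *myo-3* signal more narrowly. The window of *K12F2.3* covers the first 482 bp of the *K12F2.4* window (V 12233344–12233825), yet it held a mean of only 28.1 CPM over its whole length. No more than 0.931% to 1.11% of the *K12F2.4* counts can therefore come from those bases, and the rest came from the 1218 bp at V 12233826–12235043. The *myo-3* window exceeded the *K12F2.4* window by 1887 ± 139 CPM for WT, 2006 ± 133 for *met-2*, 1872 ± 5.3 for *set-25* and 2291 ± 61.0 for the double mutant (SD, n = 3). At least that much signal fell in the 781 bp at V 12235044–12235824, which only the *myo-3* window covers and which lie farthest upstream of its start site. The next window on that side, of *ttr-22*, starts 4065 bp away and held 21.0 CPM.

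*K12F2.4* held 57.7 ± 1.54% of the *myo-3* level for WT, 57.5 ± 1.43% for *met-2*, 57.3 ± 0.397% for *set-25* and 59.9 ± 1.22% for the double mutant (SD, n = 3). This ratio was 2.20 percentage points higher in *met-2 set-25* than in WT (exact two-sided permutation test p = 0.2) and 2.58 higher than in *set-25* (exact p = 0.1). With 3 libraries against 3, an exact p cannot go below 0.1, so no shift of signal along the promoter could pass a threshold of 0.05.

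At the *baf-1* source, *B0464.6* held between 99.03% and 99.13% of the *tag-342* level on average in each genotype. The parts that these windows do not share, 891 bp on either side, differed by a mean between 8.83 and 10.1 CPM. The split between these flanks and the shared 809 bp at III 9466573–9467381 cannot be read from the windows. The difference can therefore not be set against the level of the flanks. The closest window outside starts 6286 bp away on the left and held 25.2 CPM, and that of *bre-3*, 16895 bp away on the right, held 19.6 CPM.

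**Figure D2:**
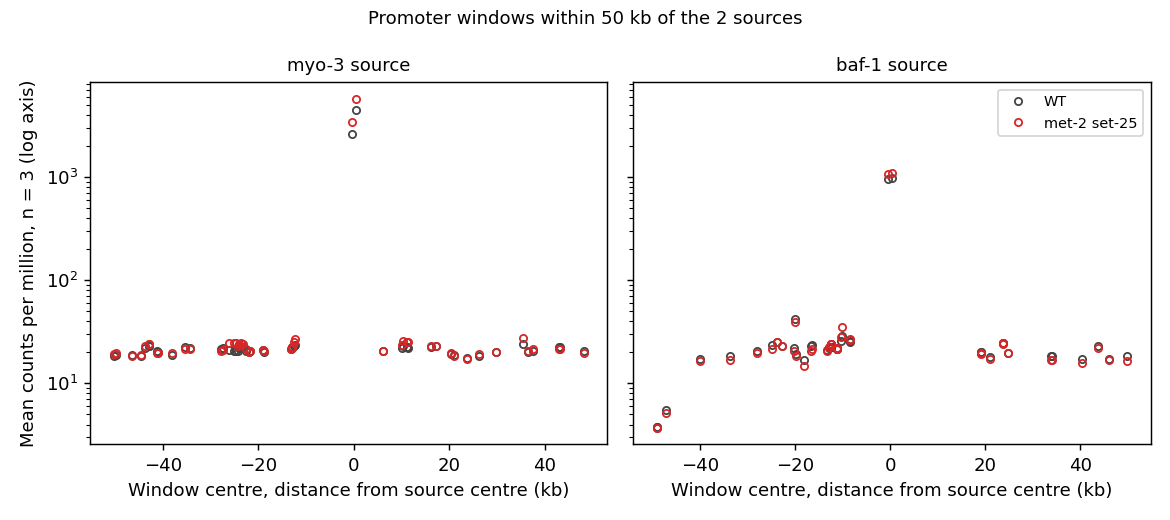
Mean level in CPM (log axis, n = 3 libraries) of promoter windows against the distance of their centre from the centre of the *myo-3* source (left) and of the *baf-1* source (right), in kb, for WT and *met-2 set-25*. The source windows stand alone at 0, and the windows around them stay between 3 and 45 CPM in both genotypes.

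Other windows of this height were rare. Among 50757 windows made of a single interval, 7 exceeded their own neighbours more than 5-fold in all 12 libraries, and 4 of these were the source windows. The others were the windows of *aex-5*, *rrn-2.1* and *F52G2.3*. The *aex-5* window, on chromosome I, held 1245 to 1364 CPM and stood 60.6-fold above its neighbours on average. *aex-5* encodes a proprotein convertase. Its window (I 14855617–14857316) lies downstream of the start of *unc-54*, the major body-wall muscle myosin heavy chain, on the same strand (window I 14863363–14865062). Whether the high level of the *aex-5* window is endogenous was not tested. *rrn-2.1* encodes a ribosomal RNA, is part of a repeated gene cluster, and held 972 to 1660 CPM. *F52G2.3* held a mean of 136 CPM and stood 8.46-fold above its neighbours. How reads with several mapping places were counted is not stated, so the levels of repeated sequences such as *rrn-2.1* are uncertain.

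The *aex-5* window varied less across libraries than the sources. *aex-5* held 1287 ± 36.6 CPM for WT, 1306 ± 16.05 for *met-2*, 1292 ± 33.6 for *set-25* and 1352 ± 19.1 for the double mutant (SD, n = 3). It was called higher in *met-2 set-25* over WT (edgeR log2FC 0.07, FDR 0.0058) and over *set-25* (0.07, FDR 0.0063), and not over *met-2* (0.05, FDR 0.091). Its means had the same order of genotypes as those of the *baf-1* source. Its coefficient of variation over the 12 libraries was 2.74%, beside 13.1% for *myo-3*, 15.7% for *K12F2.4* and 4.90% for *tag-342*. *rrn-2.1* varied by 15.2% and was lowest in *met-2* (1163 ± 173 CPM).

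Promoters of related genes were far below the sources. The mean level was 31.6 CPM at *unc-54*, which ranked 873 in the table. It was 21.8 CPM at *myo-1* and 22.6 CPM at *myo-2*, which encode the pharyngeal myosins, just above the upper quartile of all windows (21.0 CPM). The promoter window of *let-858*, a splicing factor gene, held 15.9 CPM, but it does not cover the 3′ UTR that the array carries. Among 16 genes of the nuclear lamina and of BAF-1 partners, including *lmn-1*, *emr-1* and *lem-2*, the median was 21.5 CPM.

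The question posed by the genotypes was whether loss of H3K9 methyltransferases changed accessibility at the array sources. In *met-2 set-25* over WT, all 4 source windows rose (edgeR quasi-likelihood test, Benjamini-Hochberg over 51281 windows, FDR below 0.01), against 4.17% of all windows called in either direction. The log2 fold change (log2FC) was 0.36 at *myo-3* (SE 0.033, FDR 6.3e-12) and 0.41 at *K12F2.4* (SE 0.042, FDR 2.1e-10). It was 0.16 at *tag-342* (SE 0.020, FDR 1.3e-07) and 0.16 at *B0464.6* (SE 0.020, FDR 1.4e-07). The rise was thus 1.28-fold at *myo-3* and 1.12-fold at *tag-342*. The median log2FC of all windows was −0.04. As each pair of windows shares reads, the 4 calls stand for 2 loci.

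The spread behind these tests differed between loci. The standard error computed from the 6 libraries alone was 0.096 on the log2 scale at *myo-3* and 0.026 at *tag-342*. The edgeR standard error was about the size of this replicate spread at *tag-342* and smaller than it at *myo-3*. It borrows from other windows, and only 76 of 51519 windows had a mean above 100 CPM. Little of what it borrows therefore comes from windows as high as *myo-3*. DESeq2 gave *myo-3* a standard error of 0.11 and an adjusted p of 0.0077, and it kept all 4 calls.

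Over *set-25*, the double mutant was higher at all 4 source windows, where 11.4% of all windows were called. The edgeR log2FC was 0.38 at *myo-3*, 0.45 at *K12F2.4* and 0.14 at both windows of the *baf-1* source, with FDR from 6.8e-13 to 1.5e-06. Over *met-2*, 2 of the 4 windows were called, against 0.404% of all windows. These were *myo-3* (log2FC 0.27, FDR 3.5e-08) and *K12F2.4* (0.33, FDR 1.3e-07). At *tag-342* and *B0464.6* the log2FC was 0.08 with FDR of 0.019 and 0.021. DESeq2 called 0 of the 4 windows in this comparison, with adjusted p of 0.068 at *myo-3* and 0.013 at *K12F2.4*.

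In the single mutants no source window was called by edgeR in the main fit, which had no replicate block. In *met-2* over WT the log2FC was 0.08 at all 4 windows, with FDR of 0.90 at *myo-3* and 0.13 at *tag-342*, where 0.101% of all windows were called, and 3 of the 4 had an unadjusted p under 0.05. In *set-25* over WT the log2FC lay between −0.04 and 0.02, with 0.0273% of all windows called and 0 of the 4 under an unadjusted p of 0.05. In *set-25* over *met-2* it was −0.11 at *myo-3*, −0.12 at *K12F2.4* and −0.06 at the *baf-1* source, with 0.0644% of all windows called, and 4 of the 4 had an unadjusted p under 0.05. DESeq2 called 0 of the 4 in each of these 3 comparisons. Leaving out WT replicate 1, WT replicate 2 or *met-2* replicate 3 gave 2 calls in *met-2* over WT, and leaving out *met-2* replicate 3 gave 2 in *set-25* over *met-2*. With a replicate block in the model, 1 window was called in *met-2* over WT and 2 in *set-25* over *met-2*.

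The interaction asks whether the double mutant exceeded the sum of the single mutants on the log2 scale. It was called at *myo-3* (0.30, SE 0.047, FDR 3.4e-05) and *K12F2.4* (0.37, SE 0.059, FDR 6.4e-05), against 0.144% of all windows. At *tag-342* and *B0464.6* it was 0.06 with an FDR of 0.19. DESeq2 called 0 of the 4 windows, with an adjusted p of 0.15 at *myo-3* and 0.049 at *K12F2.4*.

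**Figure D3:**
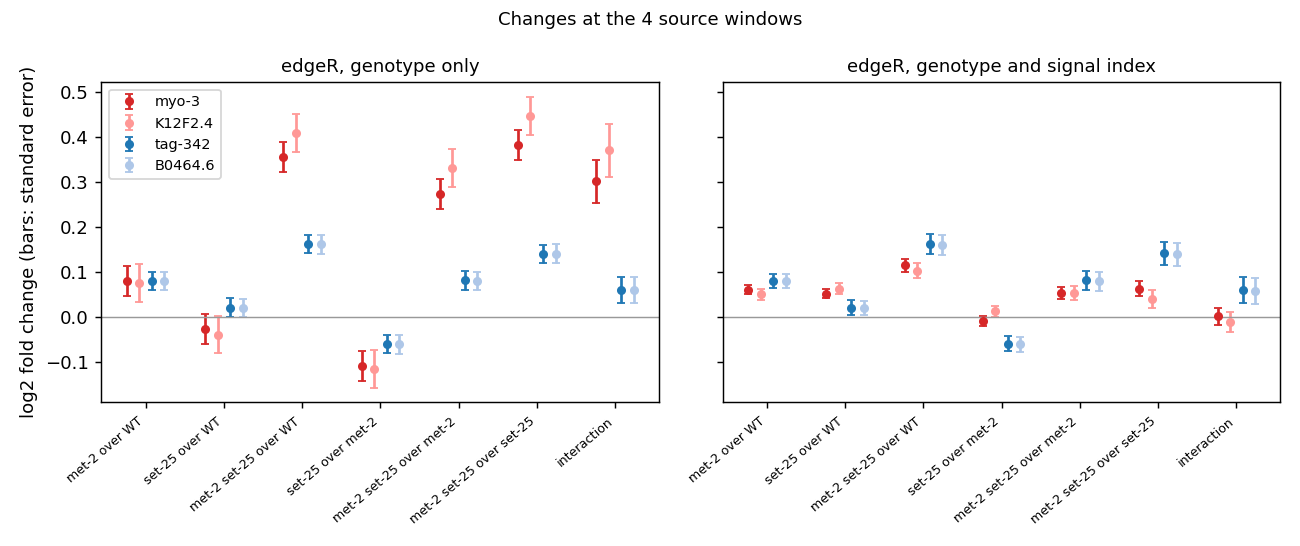
log2 fold change (points) and edgeR standard error (bars) of the 4 source windows in 6 pairwise comparisons and the interaction, with genotype alone in the model (left) and with the signal index of each library added (right). Without the index the *myo-3* windows reach 0.36 and 0.41 in *met-2 set-25* over WT, and with it 0.11 and 0.10, while both *baf-1* windows stay at 0.16.

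Within a library, the mean of the source windows divided by the median of their neighbours does not depend on the column total. For the *myo-3* source this fold was 165 ± 16.6 for WT, 172 ± 13.7 for *met-2*, 163 ± 3.5 for *set-25* and 211 ± 13.7 for the double mutant (SD, n = 3). The 3 *met-2 set-25* libraries (196 to 223) lay above all others, of which the highest was at 183. The log2 differences of *met-2 set-25* were 0.35 from WT, 0.30 from *met-2* and 0.37 from *set-25*. Each had an exact permutation p of 0.1, the smallest possible, or 0.2 after adjustment over 12 tests. The other 3 pairs overlapped, with exact p between 0.4 and 0.9.

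For the *baf-1* source the fold was 44.7 ± 1.6 for WT, 49.6 ± 2.5 for *met-2*, 46.4 ± 1.4 for *set-25* and 51.3 ± 2.6 for the double mutant (SD, n = 3). WT (42.9 to 46.0) was below both *met-2* (46.8 to 51.4) and *met-2 set-25* (48.5 to 53.5) without overlap. The log2 difference from WT was 0.15 in *met-2* and 0.20 in *met-2 set-25* (exact permutation p = 0.1 for each, 0.2 adjusted). *met-2 set-25* and *met-2* overlapped, with a log2 difference of 0.05 (exact p = 0.5).

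Both promoters lie on the same array, and their ratio was compared within libraries. The *myo-3* source over the *baf-1* source, each relative to its neighbours, was 3.71 ± 0.49 for WT, 3.47 ± 0.37 for *met-2*, 3.51 ± 0.17 for *set-25* and 4.11 ± 0.17 for the double mutant (SD, n = 3). On the log2 scale, *met-2 set-25* differed by 0.25 from *met-2* and by 0.23 from *set-25* without overlap (exact permutation p = 0.1 for each, 0.3 adjusted over 6 pairs). With neighbours taken within 20 kb, the difference from *set-25* was 0.12 (exact permutation p = 0.3) and that from *met-2* 0.20 (exact p = 0.1). The double mutant differed by 0.15 from WT with overlap (exact p = 0.3). A ratio within a library shows unequal change, not which of the 2 promoters changed.

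The libraries also differed in how strongly counts were concentrated in the windows of highest signal. A signal index was computed as the share of counts held by the top 5% of autosomal windows, ranked by their mean over the *set-25* libraries. The 10 windows with the highest mean CPM, among them the 4 source windows, were left out. The index is a percentage of the counts of the remaining autosomal windows, not of the column total. It was 9.31%, 9.98% and 9.08% for WT, 9.78%, 9.999% and 8.87% for *met-2*, 9.12%, 9.15% and 9.12% for *set-25*, and 10.1%, 11.3% and 10.4% for the double mutant. The 3 double-mutant libraries were the highest, and the WT and *met-2* libraries with low *myo-3* signal were also low in the index.

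Promoters of body-wall muscle genes also had their highest levels in the double-mutant libraries. The median of the 33 muscle genes was 24.05, 27.6 and 23.7 CPM for WT, 27.997, 27.9 and 23.4 for *met-2*, 23.6, 24.4 and 24.5 for *set-25*, and 30.8, 33.99 and 30.4 for the double mutant. A gene was counted as changed when any of its windows was called by edgeR, and the window with the lowest FDR gives the value of each gene named. In *met-2 set-25* over WT, 21 of the 33 rose and 0 fell, whereas 3.24% of all 41041 genes, non-coding ones included, rose. That share is not a matched baseline. Muscle genes had up to 18 windows (*lev-11*), and their median level lay above the upper quartile of all windows. With the log2FC averaged over the windows of a gene, the median was 0.29 over the muscle genes and −0.05 over all genes. Among those that rose were *mup-2*, a troponin T (0.60), *unc-27*, a troponin I (0.58), *unc-89*, the giant M-line protein obscurin (0.44), *hlh-1*, the MyoD homologue (0.42), and *unc-54* (0.39, FDR 0.0020). The log2FC of 0.36 at *myo-3* was below those of the genes named here. It lay within the range of all muscle genes that rose, from 0.25 (*unc-87*) to 0.60 (*mup-2*). None of the genes in the intestine, neuron, hypodermis and seam, pharynx and germ line lists was called in this comparison. Of the 16 lamina and BAF-1 partner genes, 1 rose, *unc-84*, a SUN-domain protein of the nuclear envelope, at 0.38.

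Over the 12 libraries, the log2 *myo-3* source signal relative to its neighbours followed the log2 signal index with a Pearson r of 0.961 (permutation p = 1e-05, the smallest that 100000 resamples can give; 2e-05 adjusted over 4 relations) and a Spearman rho of 0.944 (permutation p = 2e-05). Without *met-2 set-25* replicates 2 and 3, the libraries farthest from the median index, r was 0.933, and within genotypes it was 0.930. Against the log2 muscle list median, the *myo-3* r was 0.965 (permutation p = 1e-05) and rho 0.951 (permutation p = 3e-05). It was 0.942 without *met-2 set-25* replicates 1 and 2, the farthest from the median of the list, and 0.887 within genotypes. The index and the muscle list were themselves correlated (r = 0.975), so these are not separate relations. The permutations, here and for the *baf-1* source, shuffled all 12 libraries without regard to genotype. Their p therefore also reflects differences between genotypes, and no p was computed for the values within genotypes.

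For the *baf-1* source, r with the index was 0.451 (permutation p = 0.14, the same after adjustment) and rho was 0.462 (permutation p = 0.13). Without the same 2 libraries r was −0.044, and within genotypes −0.198, so the pooled value rested on these double-mutant libraries. Against the muscle list r was 0.478 (permutation p = 0.12) and rho 0.357 (permutation p = 0.26), with an r of 0.341 without *met-2 set-25* replicates 1 and 2 and of −0.466 within genotypes.

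**Figure D4:**
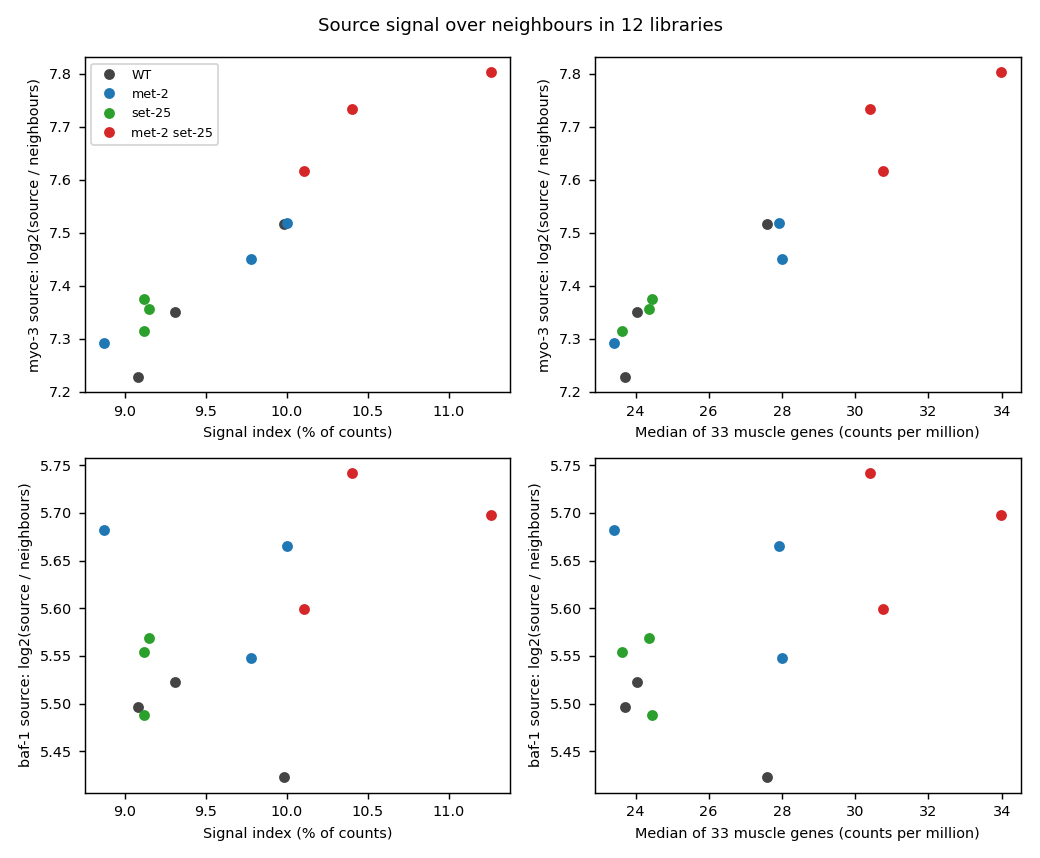
log2 of source signal over the neighbour median in each of 12 libraries, for the *myo-3* source (top) and the *baf-1* source (bottom), against the signal index in % of counts (left) and the median of 33 muscle genes in CPM (right). Points of the *myo-3* source lie along a line over the 12 libraries pooled (r = 0.961 and 0.965), and those of the *baf-1* source scatter (r = 0.451 and 0.478). The *set-25* libraries lie close together and show no line of their own against the index.

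When the index was added to the edgeR model, a choice made after seeing the data, the log2FC in *met-2 set-25* over WT was 0.11 at *myo-3* (FDR 9.5e-10) and 0.10 at *K12F2.4* (FDR 1.2e-05), and 0.16 at both *baf-1* windows. All 4 remained called. Over *set-25*, the *baf-1* windows were called and the *myo-3* windows were not (0.06 and 0.04). Over *met-2* and for the interaction, none of the 4 was called. Relative to the median of the muscle list, the *myo-3* source differed between *met-2 set-25* and WT by 0.04 on the log2 scale (exact permutation p = 0.4), and the *baf-1* source by −0.18 (exact p = 0.2). Genotype and index are partly confounded in these 12 libraries. In sorted bulk samples, the share of muscle cells and the accessibility per cell cannot be told apart, and their part in the genotype differences was not tested.

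The 2227 windows of highest signal outside the sources were those of the index, ranked by their mean in the *set-25* libraries. The same libraries enter the comparison with *set-25* and the interaction, so the reference values there partly follow from the choice of windows. Among these 2227 windows, the median log2FC in *met-2 set-25* over WT was 0.16, and 19.4% were called by edgeR. The value at *myo-3* was above 85.8% of these windows and that at *K12F2.4* above 92.5%. *tag-342* and *B0464.6* were above 51.2% and 51.1%. Over *set-25*, 42.5% of the high-signal windows were called, with a median of 0.22. There *myo-3* was above 76.1% of them and *tag-342* above 38.8%. Over *met-2*, 0.808% were called, with a median of 0.15, and *myo-3* was above 82.8% and *tag-342* above 32.7%. In the interaction, with 0.584% called and a median of 0.21, *myo-3* was above 68.7% and *tag-342* above 24.8%.

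The windows whose log2 CPM followed the *myo-3* source most closely over 12 libraries all lay on chromosome X. They were those of the transcript NM_077859 (r = 0.992), *K02B9.9* (r = 0.991) and *linc-103* (r = 0.991), among 25754 windows at or above the median level. For the *baf-1* source they were *ttr-51* on chromosome IV (r = 0.933), *mir-8196.1* (r = 0.927) and *bltp-3B* (r = 0.921), the latter pair on chromosome X. These are the highest of many correlations and are given as a description. The share of chromosome X among the compared windows is not given, so no link to the place of the array can be read from them.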

How the data were processed

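Counts, analysed as deposited, were made by the authors from Omni-ATAC-seq libraries. Per the study's methods and processing notes, reads were trimmed with cutadapt, aligned to ce10 with Bowtie2, freed of duplicates with Picard, split into single reads with bedtools 2.26, shifted for the Tn5 offset and counted without strand in QuasR. Windows span 1500 bp upstream to 200 bp downstream of a start site, overlap, and share reads. Column totals are sums over windows, so 3 counts equal 0.0284 to 0.0598 CPM. Of 51519 windows, 762 combine several intervals.

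Windows were compared in R 4.3.3 by edgeR 4.0.16 (quasi-likelihood, column totals as library size, 12 libraries in one fit) at an FDR below 0.01. Per-library ratios used exact permutation tests, with SciPy 1.17.1. Alternatives were TMM factors, DESeq2 1.42.0, filterByExpr, library sizes without the source windows, pairs of genotypes alone, a replicate block, each library left out, an FDR of 0.05, and other neighbour sets. The signal index as a covariate, high-signal windows or the muscle list as reference, and the CPM ratio without neighbours were added after seeing the data. Named windows were the members, their highest neighbours, array components and related myosins, the 10 highest windows, those above 5 times their neighbours, and the 3 most alike. Other genes were named after their values were seen. Members and lists were chosen with earlier results of these data known. Names came from WBcel235 (95.9% of windows matched). No sequences were used here. The procedure was tested on simulated data.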

Additional observations from a re-analysis of the deposited data

Results flagged for a closer look

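The interaction of the 2 mutations differed from 0 at the *myo-3* source. The effect of *met-2* in the *set-25* background exceeded its effect in WT by 0.30 on the log2 scale at *myo-3* (edgeR FDR 3.4e-05) and by 0.37 at *K12F2.4* (FDR 6.4e-05). With the signal index in the model these values were 0.0019 at *myo-3* and −0.01 at *K12F2.4*, and DESeq2 called neither. The part of the index in the interaction was not tested.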

How the results depend on the processing

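All 4 calls in *met-2 set-25* over WT held under every alternative run, with each library left out included. Other counts of source windows called changed. In *met-2* over WT, 0 became 1 with a replicate block, 3 with the signal index as a covariate and 0 to 2 with a library left out. In *set-25* over WT, 0 became 2 with the index. In *set-25* over *met-2*, 0 became 2 in the fit of these genotypes alone, 2 with the replicate block and 0 to 2 with a library left out. In *met-2 set-25* over *met-2*, 2 became 4 with TMM factors, 4 with the replicate block, 4 at an FDR of 0.05, 2 to 4 with a library left out (4 without WT replicate 1, WT replicate 2 or *met-2 set-25* replicate 1), 0 with the index and 0 with DESeq2. For the double mutant over *set-25*, 4 became 2 with the index. In the interaction, 2 became 0 with the index and 0 with DESeq2. By the criterion that every same-numbered pair exceed 0.1, replicate numbers were not taken to pair the libraries. This criterion is strict, and failing it does not show that the libraries were unpaired. Correlations of same-numbered libraries ranged from −0.161 to 0.403 (mean 0.092), and 6 of 18 were over 0.1. Libraries with different numbers had a mean of −0.047, with 5 of 36 over 0.1. Of 12 libraries, 6 correlated best with their own number. In every genotype, however, replicate 2 had the highest *myo-3* level, *K12F2.4* level and signal index. At *myo-3* in *met-2* over WT, edgeR's standard error was 0.018 with the replicate block and 0.033 without it. The FDR was 0.0085 with the block and 0.90 without it. The block fit allows for a shared effect of replicate number, but that effect itself was not tested.

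Small differences changed sign. For *set-25* over WT, the log2FC ran from −0.094 to 0.052 at *myo-3* and from −0.11 to 0.065 at *K12F2.4* with a library left out, and was 0.052 and 0.063 with the index. With the index, *K12F2.4* was at 0.013 in *set-25* over *met-2* and at −0.0099 in the interaction. For the *myo-3* source over neighbours (log2), *set-25* over WT was 0.014 within 20 kb, 0.045 against the high-signal windows, 0.028 against the muscle list and −0.084 to 0.059 with a library left out. *met-2* over WT ran from −0.013 to 0.13, and *set-25* over *met-2* was 0.021 against the muscle list. For the *baf-1* source against the high-signal windows and the muscle list, the double mutant over WT was −0.029 and −0.18, *set-25* over *met-2* 0.024 and 0.067, the double mutant over *met-2* −0.097 and −0.18, and over *set-25* −0.12 and −0.251. For *myo-3* over *baf-1* with a library left out, *met-2* over WT ran from −0.17 to 0.0083, *set-25* over WT from −0.15 to 0.032 and *set-25* over *met-2* from −0.066 to 0.081, and the latter was −0.045 as a CPM ratio without neighbours. The cause of these changes was not tested.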
